A study of Homo sapiens with 3 samples.

Results

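The tubulin folding cofactors TBCA, TBCB, TBCC, TBCD and TBCE, the tubulin mRNA decay factor TTC5 and the tubulin-binding protein stathmin (STMN1) were followed by RNA-seq in renal cancer cells after RBCK1 depletion. The 7 genes were chosen by name, and all 7 were found among the 44591 genes of the deposited table. All 7 also had a mean of at least 1 RPKM (reads scaled to gene length and to the library's total reads) over the 3 libraries, the filter that 12403 genes passed. The cells were Caki-1, an established human clear cell renal carcinoma line, harvested 48 h after they received a control siRNA (si-Control) or an siRNA against RBCK1 (si-RBCK1 #1 or si-RBCK1 #2). The sample records call the last pair si-HOIL-1#1 and si-HOIL-1#2, HOIL-1 being another name of RBCK1, a subunit of the linear ubiquitin ligase. There was 1 library per condition, so no difference has a replicate check and no p-value was computed, and what differed between cultures cannot be told apart from what the siRNA did. In such bulk RNA, fewer cells that express a gene and less of its RNA per cell cannot be told apart either.

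An alpha and a beta tubulin chain cannot form a dimer on their own. Newly made chains are handed by prefoldin to the CCT chaperonin, where they fold, and then to the cofactors. TBCA and TBCD hold beta tubulin, TBCB and TBCE hold alpha tubulin, and TBCC joins the complex of TBCD and TBCE and triggers GTP hydrolysis, which releases the finished dimer. The small GTPase ARL2 works with TBCD and TBCE. Cells that hold too much free dimer destroy their own tubulin mRNAs. In that feedback TTC5 binds the nascent tubulin chain as it leaves the ribosome and, through SCAPER, brings in the CCR4-NOT deadenylase. TTC5, under its other name Strap, is also a cofactor of p300 and JMY in the p53 response. Stathmin sequesters tubulin dimers and favours microtubule shrinkage, and its phosphorylation in mitosis releases them.

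Each library was compared with si-Control as a log2 ratio of RPKM + 1, a scale that understates changes of low genes. The RPKM values also gave back whole reads, from which 95% exact Clopper-Pearson intervals of the ratio and exact Poisson intervals of the level were computed. They cover counting error only and not the spread between cultures. RBCK1 stood at 29.9% and 36.8% of its depth-scaled si-Control reads with si-RBCK1 #1 and #2. The libraries were scaled by 36926834, 40442939 and 36344428 reads for si-Control, si-RBCK1 #1 and si-RBCK1 #2. Of 8 renal epithelial markers 4 passed the filter, and the summed level of the 8 was 287, 402 and 521 RPKM in the same order. PAX8, a defining renal transcription factor, was among them, whereas PAX2 and the epithelial cadherin CDH1 were at or near 0 in each library. Of 7 markers of blood, endothelial, muscle, liver and nerve cells 0 passed, with a summed level between 0.322 and 0.517 RPKM, and the T cell marker CD3E was at 0 in each library. PAX8 was lower in both depleted libraries (124, 82.5 and 107 RPKM), whereas KRT8 and CDH6 were at least 2-fold higher with both siRNAs. CDH6 was under 1 RPKM in the control and passed the filter only through the libraries where it was high. The part of these shifts in the results below was not tested.

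The siRNA sense strands are shown first, because 1 member holds repeated matches to the seed of 1 siRNA. Capitals mark the 7 bases, sense positions 12 to 18, that a target shares when it pairs with guide bases 2 to 8.
si-RBCK1 #1: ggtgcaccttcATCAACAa
si-RBCK1 #2: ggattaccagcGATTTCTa
Among the longest protein-coding transcripts of 10553 genes that passed the filter (GENCODE v29), 23.8% held the 7 bases of si-RBCK1 #1 and 29.2% those of si-RBCK1 #2. Of the members' longest transcripts, none held the match to si-RBCK1 #1, and that of TBCE alone held the match to si-RBCK1 #2. The TBCE transcript (5441 nt, 17 exons, coding from base 177 to 1760) held it at bases 2850 to 2856, 4671 to 4677 and 4838 to 4844, all after the coding part. These 3 stretches are given with their flanks, the matches in capitals.
TBCE base 2850: ttactactacaGATTTCTg
TBCE base 4671: agatgtgggttGATTTCTt
TBCE base 4838: gctttgtgcttGATTTCTt
Outside the capitals the stretches were not aligned to the siRNA. The smallest length that gave whole TBCE reads was 2223 nt, shorter than this transcript. The length that the authors used may be a multiple of it. Over all annotated protein-coding transcripts the picture differed. The match to si-RBCK1 #2 was in 1 of 18 TBCE and 1 of 2 TTC5 transcripts, and that to si-RBCK1 #1 in 7 of 18 TBCE and 1 of 6 STMN1 transcripts. Which of these transcripts the cells make, and the part of the matches in any value, was not tested.

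TBCD was the member with the largest difference from si-Control, higher with both siRNAs and by about the same amount. It is the beta tubulin cofactor around which the dimer-forming complex is built, and it lies at chr17:80709940-80901062 on the plus strand (hg19, as for the positions of the other members). The si-Control library held 3229 reads (19.7 RPKM), the si-RBCK1 #1 library 5809 reads (32.4 RPKM) and the si-RBCK1 #2 library 5379 reads (33.4 RPKM). Both depleted libraries were high and the counting interval of the control, 19.1 to 20.4 RPKM, overlapped neither. The log2 ratios were 0.69 and 0.73, and on reads the gene stood at 164% (log2 0.72, 0.65 to 0.78) and 169% (log2 0.76, 0.70 to 0.82) of the control. The siRNAs differed from each other in TBCD by a log2 of -0.043 (-0.097 to 0.011). Of all genes tested, 8.46% and 6.67% had a log2 ratio at or above that of TBCD. TBCD shares 1038 nt with B3GNTL1 on the opposite strand, a gene at 4.59, 5.09 and 4.57 RPKM. TBCD also shares 10622 nt with ZNF750 on the opposite strand, at 0.15, 0.085 and 0.14 RPKM. A lincRNA on the same strand shares 504 nt, at 0.64, 0.59 and 1.15 RPKM. An antisense RNA shares 610 nt and was under 1 RPKM in each library. The strand setting of the counting is not given in the sources used here.

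With si-RBCK1 #1, stathmin was the other member near 1.5-fold, whereas with si-RBCK1 #2 TBCC lay nearer to that limit. STMN1 lies at chr1:26210677-26233368 on the minus strand. Its level rested on 5202 reads in the control (39.1 RPKM), 8598 reads after si-RBCK1 #1 (59.0 RPKM) and 6727 reads after si-RBCK1 #2 (51.4 RPKM). The 3 counting intervals did not overlap, with si-RBCK1 #1 highest and si-Control lowest. The log2 ratios were 0.58 and 0.39, and reads stood at 151% (log2 0.59, 0.54 to 0.64) and 131% (log2 0.39, 0.34 to 0.45) of the control. With si-RBCK1 #1 the value lies at the 1.5-fold limit (log2 0.585), just past it on reads and just short of it with the pseudocount. The siRNAs differed by a log2 of 0.20 (0.15 to 0.25). The STMN1 pseudogenes in the table, STMN1P1 and STMN1P2, stayed under 1 RPKM in each library.

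The alpha tubulin cofactor TBCE went in opposite directions with the siRNAs. TBCE carries a CAP-Gly domain that recognises the tail of alpha tubulin, and mutations in it cause a syndrome of hypoparathyroidism with growth and developmental delay. It lies at chr1:235530675-235612283 on the plus strand. The control held 1781 TBCE reads (21.7 RPKM), si-RBCK1 #1 gave 2125 (23.6 RPKM) and si-RBCK1 #2 gave 1389 (17.2 RPKM). The log2 ratios were 0.12 and -0.32, at 109% (log2 0.12, 0.032 to 0.22) and 79.2% (log2 -0.34, -0.44 to -0.23) of the control reads. When libraries were scaled to equal total RPKM, the log2 ratio with si-RBCK1 #1 became 0.064. The difference between the siRNAs, a log2 of 0.46 (0.36 to 0.56), was by value the widest among the members. That of TBCC was close in size (-0.44, -0.58 to -0.30), and the counting intervals overlap in size. Opposite signs were found in 18.4% of all genes tested, and TBCE was the 1 member among them. The seed match of si-RBCK1 #2 stands 3 times in the longest TBCE transcript, but only 1 of 18 TBCE transcripts holds it. That of si-RBCK1 #1 is in 7 of 18. The part of these matches in the TBCE values was not tested. TBCE overlaps B3GALNT2 over 1779 nt on the opposite strand. That gene was at 17.9, 11.3 and 14.9 RPKM in the same order, lowest where TBCE was highest. An antisense RNA (7469 nt shared) and a pseudogene on the same strand (286 nt shared) were under 1 RPKM in each library.

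TBCB, the CAP-Gly cofactor that takes alpha tubulin from the chaperonin, differed from the control with si-RBCK1 #2 alone beyond counting error. It lies at chr19:36605888-36616850 on the plus strand, with 1412 reads in the control (24.3 RPKM), 1581 after si-RBCK1 #1 (24.8 RPKM) and 1818 after si-RBCK1 #2 (31.7 RPKM). The log2 ratio was 0.031 (interval on reads -0.073 to 0.14) for the former siRNA and 0.37 (0.29 to 0.49) for the latter. TBCC, the cofactor that activates the GTPase of beta tubulin, followed the same course. It lies at chr6:42712234-42713884 on the minus strand, where its counted length of 1651 nt equals its whole span. It had 646 reads (10.6 RPKM), 719 reads (10.8 RPKM) and 876 reads (14.6 RPKM) in that order. Its log2 ratios were 0.021 (interval on reads -0.13 to 0.18) and 0.43 (interval on reads 0.31 to 0.61). For both genes the si-RBCK1 #1 library lay within the interval of the control and the si-RBCK1 #2 library above it. The siRNAs differed by a log2 of -0.36 (-0.45 to -0.26) for TBCB and -0.44 (-0.58 to -0.30) for TBCC. When libraries were scaled to equal total RPKM, the log2 ratios with si-RBCK1 #1 became -0.024 for TBCB and -0.030 for TBCC. TBCB also shares 319 nt with POLR2I on the opposite strand, which was at 13.5, 17.9 and 16.6 RPKM.

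TBCA, which holds beta tubulin in reserve before TBCD takes it over, was the 1 member lower with both siRNAs, as were 38.2% of all genes tested. It lies at chr5:76986994-77072185 on the minus strand. Its level was 49.8 RPKM in the control library (4502 reads), 47.95 RPKM after si-RBCK1 #1 (4745 reads) and 41.9 RPKM after si-RBCK1 #2 (3730 reads). The log2 ratio was -0.054 (interval on reads -0.11 to 0.0038) for si-RBCK1 #1 and -0.24 (-0.31 to -0.19) for si-RBCK1 #2. Only the si-RBCK1 #2 library was below the control beyond counting error, and the siRNAs differed by a log2 of 0.19 (0.13 to 0.26). The pseudogenes TBCAP1, TBCAP2 and TBCAP3 were under 1 RPKM in each library.

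TTC5 was the lowest member in each library and had similar values with both siRNAs. It lies at chr14:20757290-20774153 on the minus strand, with 330 reads in the control (4.76 RPKM), 424 after si-RBCK1 #1 (5.59 RPKM) and 377 after si-RBCK1 #2 (5.53 RPKM). The log2 ratios were 0.19 and 0.18, and on reads TTC5 stood at 117% (log2 0.23, 0.019 to 0.44) and 116% (log2 0.22, -0.0020 to 0.43) of the control. These intervals are the widest of the members, since TTC5 had the fewest reads, and the level intervals of all 3 libraries overlapped. The siRNAs differed by a log2 of 0.015, with an interval of -0.19 to 0.22.

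By a limit of 2-fold, 0 of the 7 members differed from si-Control with si-RBCK1 #1, with si-RBCK1 #2 or with both, against 6.18%, 4.76% and 2.87% of all genes tested. By a limit of 1.5-fold, 1 member, TBCD, differed with si-RBCK1 #1 and 1, again TBCD, with si-RBCK1 #2, against 23.7% and 20.6% of all genes. TBCD was higher by that limit with both, as were 7.47% of all genes. Higher at any size with both siRNAs were 5 members (TBCD, STMN1, TBCB, TBCC and TTC5), against 43.3% of all genes. Of these, only TBCD and STMN1 had counting intervals above 0 with both siRNAs. The counting interval lay apart from 0 for 4 members with si-RBCK1 #1 and 6 with si-RBCK1 #2, against 77.7% and 75.1% of genes with whole reads. Between the siRNAs it did so for 5 of 7 members and 62.5% of genes, the exceptions being TBCD and TTC5. The median log2 ratio of the 7 members was 0.12 and 0.37, beside 0.019 and 0.035 over all genes tested. Both comparisons share the si-Control library.

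The order of the levels, which RPKM gives per gene length, was TBCA, STMN1, TBCB, TBCE, TBCD, TBCC and TTC5 from highest to lowest with si-Control. With both siRNAs it was STMN1, TBCA, TBCD, TBCB, TBCE, TBCC and TTC5. TBCD thus stood below TBCB and TBCE in the control and above both in the depleted libraries. Neighbours in the order had overlapping counting intervals in 2 places, TBCB and TBCE with si-RBCK1 #1, and TBCD and TBCB with si-RBCK1 #2.

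The genes whose pair of log2 ratios over the 3 libraries was most like a member's were sought among protein-coding genes within 2-fold of its control level. The measure was the Euclidean distance between the pairs. For TBCD the nearest were VCL (0.67 and 0.74, distance 0.015), AP1M1 (0.70 and 0.72) and SPG7 (0.70 and 0.75), with 59 of 3838 candidates within a distance of 0.1. For STMN1 they were NDUFS3 (0.58 and 0.40, distance 0.010), TIMM17A and WSB2, with 60 of 2517 candidates that near. For TBCE they were B4GALT4 (0.093 and -0.33, distance 0.028), RWDD2B and TMEM230, with 31 of 3687 candidates. TTC5 had the most company, 153 of 3899 candidates, the nearest being FOCAD, RAB22A and ZSWIM4. The nearest to TBCA were BPNT1, SHISA2 and HEXA, to TBCB MFSD12, RNPEPL1 and RHBDD2, and to TBCC ALKBH7, HMG20B and NLRX1. None of these genes was a tubulin or another gene of the lists below.

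The promoters of TBCD and STMN1 are shown because these members had the largest log2 ratios with si-RBCK1 #1 and intervals above 0 with both siRNAs; with si-RBCK1 #2 TBCC was above STMN1. RefSeq (GRCh38.p14) gave promoter entries for all 7 members, 12 in all, and the 250 bases before each start site were searched on both strands. The sequences are the leading entry of each gene, TBCD from chr17:82751815-82752064 on the plus strand and STMN1 from chr1:25906420-25906669 on the minus strand. Capitals mark TTTGGCG (an E2F-type motif), CACGTG (an E-box) and CCAAT.
TBCD promoter: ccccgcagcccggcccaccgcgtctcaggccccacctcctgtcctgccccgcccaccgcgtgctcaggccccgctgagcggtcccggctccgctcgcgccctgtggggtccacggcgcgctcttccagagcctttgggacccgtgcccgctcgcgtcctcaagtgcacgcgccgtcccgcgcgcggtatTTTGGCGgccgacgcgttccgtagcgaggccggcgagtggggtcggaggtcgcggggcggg
STMN1 promoter: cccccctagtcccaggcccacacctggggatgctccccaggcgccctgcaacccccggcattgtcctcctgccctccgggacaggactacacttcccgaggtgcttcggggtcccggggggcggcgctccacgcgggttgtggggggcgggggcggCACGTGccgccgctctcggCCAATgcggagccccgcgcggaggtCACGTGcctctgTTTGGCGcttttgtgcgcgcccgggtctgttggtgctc
TTTGGCG began at -61 in the TBCD promoter and at -38 in that of STMN1, counted from the start site. STMN1 also held CACGTG at -94 and -50 and CCAAT at -75. Over 35116 promoter entries of the same length TTTGGCG was found in 1.59%, CACGTG in 6.34% and CCAAT in 32.0%. TTTGGCG was also in an entry of TBCB, at -22, and in the other TBCD entry at -232. TBCB did not differ from the control with si-RBCK1 #1 beyond counting error. With si-RBCK1 #2 the log2 ratio of TBCB was 0.37, beside 0.39 for STMN1. CCAAT was also in entries of TBCB, TBCC and TBCE. The other STMN1 entries held none of the motifs marked here. The motifs were picked after the sequences were seen, and a match of letters is a description and not a site.

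The clients of the cofactors, the alpha and beta tubulins, were higher with both siRNAs wherever they passed the filter. Of 18 such genes 9 passed, all 9 were higher with both siRNAs and 6 were at least 2-fold higher with both, against 43.3% and 1.46% of all genes tested. The medians were 1.44 and 1.34, above the log2 ratio of each member, but over all 18 genes, which include those near 0, they were 0.50 and 0.40, below that of TBCD. They ranged from TUBA1C, at log2 ratios of 0.75 and 0.61, to TUBB3, at 2.51 and 2.47. Summed over the 18 genes, tubulin RNA came to 725 RPKM in the control and to 1737 RPKM and 1659 RPKM in the depleted libraries. Since tubulin paralogs are near-identical in places, the split of reads among them is uncertain. TBCA to TBCE together were at 126, 140 and 139 RPKM. Tubulin RPKM per RPKM of the 5 cofactors was therefore 5.75 in the control and 12.45 and 11.95 in the depleted libraries. The same quotient was 36.7, 53.6 and 49.7 for TBCD alone and 33.4, 73.5 and 96.5 for TBCE alone. Per RPKM of TTC5 it was 152, 311 and 300, and per RPKM of STMN1 it was 18.5, 29.4 and 32.3. RNA levels do not measure the proteins. In the lists that follow, the counts may be read against the 43.3% of all genes that were higher and the 38.2% that were lower with both siRNAs. The counts go by sign alone, and some of the genes counted did not differ from the control beyond counting error. The genes named at the ends of a list were ordered by whichever of their log2 ratios lay nearer to 0, so that another gene may lie further out with a single siRNA.

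**Figure D1:**
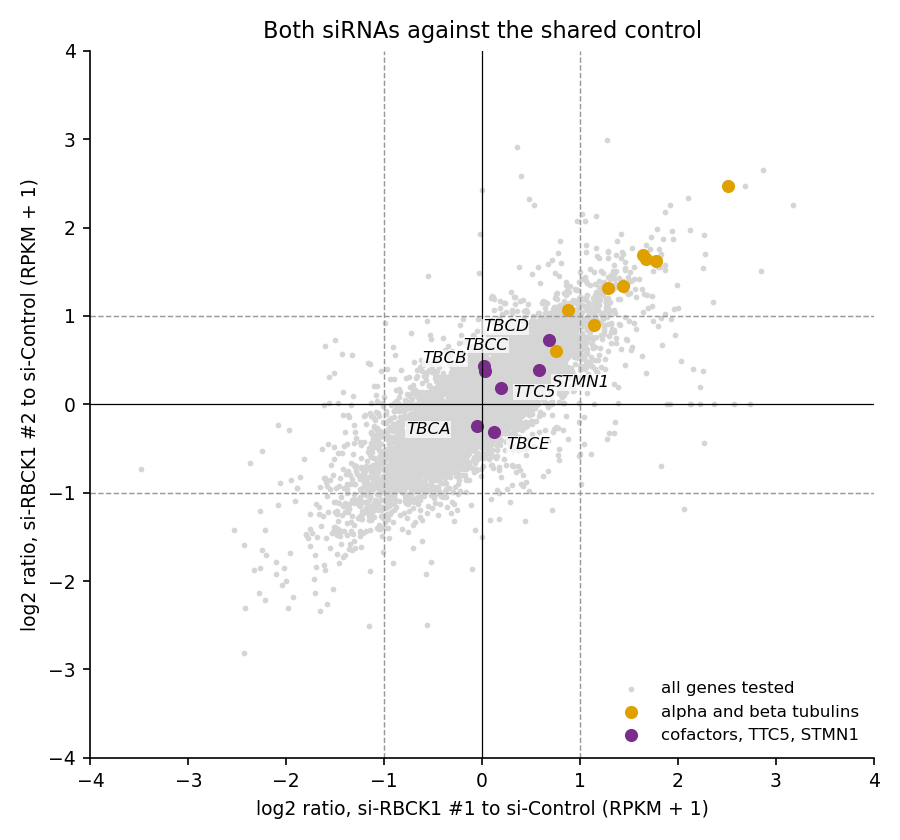
log2 ratio (RPKM + 1) with si-RBCK1 #1 (horizontal axis) against that with si-RBCK1 #2 (vertical axis), both to the same si-Control library, for the 12403 genes tested, the 9 alpha and beta tubulins and the 7 members; dashed lines mark 2-fold. All 9 tubulins lie to the upper right, TBCD is the member nearest to them, and TBCE lies to the lower right.

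The machines that act before the cofactors differed among themselves. Of the 9 CCT subunits, 7 were higher and 1 lower with both siRNAs (median log2 ratios 0.45 and 0.34). CCT3 was the highest of them (1.12 and 0.74), and CCT6B, a paralog best known from testis, was at least 2-fold lower with both (-1.03 and -1.09) on 87, 27 and 22 reads, as were 1.41% of all genes. CCT6B passed the filter only through the control, and without it, at a mean of 5 RPKM or more, the CCT medians were 0.54 and 0.40. Of the 6 prefoldin subunits, which deliver unfolded tubulin to CCT, 3 were higher and 3 lower with both, from PFDN2 (-0.66 and -0.58) to PFDN6 (0.60 and 0.65), with medians of 0.097 and -0.086.

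ARL2 and the relatives of the cofactors showed no common direction, with 2 of 5 higher and 3 lower with both siRNAs and median log2 ratios of -0.22 and -0.019. ARL2 itself was at 33.6, 26.4 and 33.1 RPKM (log2 ratios -0.33 and -0.019). TBCEL, a TBCE-like protein that destabilises tubulin, was the lowest (-0.74 and -0.58). TBCCD1, which shares a domain with TBCC, was the highest (0.72 and 0.66). The 9 genes of gamma, delta and epsilon tubulin and the gamma tubulin ring complex had medians of 0.51 and 0.23, with 6 higher and 2 lower with both. With a pseudocount of 5 RPKM the medians were 0.25 and 0.15. TUBGCP5 of the ring complex was the highest (0.89 and 0.79), and TUBE1, the epsilon tubulin of centrioles, was at least 2-fold lower with both (-1.36 and -1.18). The other gene counted as lower, TUBGCP2, did not differ from the control beyond counting error with either siRNA.

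The effectors that TTC5 recruits included genes in both directions. Of SCAPER and 10 CCR4-NOT subunits, 7 were lower and 3 higher with both siRNAs, and the median log2 ratios were -0.15 and -0.16. Of the 7, CNOT10 had a counting interval with si-RBCK1 #1 that held 0 (-0.14 to 0.13). SCAPER, the adaptor between TTC5 and the deadenylase, had 618 reads in the control (3.32 RPKM), 275 after si-RBCK1 #1 (1.35 RPKM) and 267 after si-RBCK1 #2 (1.46 RPKM). Its log2 ratios of -0.88 and -0.81 lay nearer to 0 than the intervals on reads, -1.51 to -1.09 and -1.40 to -0.98, because of the pseudocount. The highest of the list was CNOT9 (0.46 and 0.20). The list's medians moved to -0.0068 and -0.080 when a mean of at least 5 RPKM was required, which leaves SCAPER and CNOT6L out. Of the 6 genes of the p53 response listed with TTC5, 2 were higher and 2 lower with both siRNAs. MDM2, the ubiquitin ligase of p53, was the highest (0.57 and 0.94) and the actin nucleator JMY stood at the other end (-0.60 and -0.32), though CHEK2 was lower with si-RBCK1 #2 (-0.42). The medians were -0.13 and 0.18.

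Among the genes that act as stathmin does, against microtubules, 8 of 12 passed the filter, 4 of them higher and 2 lower with both siRNAs (median log2 ratios 0.12 and 0.23). Over all 12 genes the medians were 0.067 and 0.064, and at a mean of 5 RPKM or more they were 0.13 and 0.11. The ends of the list were the depolymerase KIF2C (0.70 and 0.45) and the severing enzyme SPAST (-0.73 and -0.40). The stathmin relatives did not pass, STMN2 being at 0 in each library and STMN3 and STMN4 under 1 RPKM, so STMN1 was the 1 stathmin measured above the filter. Of the 15 stabilising and plus-end proteins 12 passed, with 9 lower and 3 higher with both and medians of -0.32 and -0.22. CLIP1, which tracks growing plus ends (-0.59 and -0.50), and CLASP2 (-0.50 and -0.66) were nearly level at the lower end. MAP1A stood at the upper end (0.90 and 0.36), but it was under 1 RPKM in the control and passed the filter only through the depleted libraries. Of 13 kinases that phosphorylate stathmin 11 passed, 7 lower and 4 higher with both and medians of -0.20 and -0.19, from PRKACB (-0.46 and -0.54) to CAMK2G (0.69 and 0.66). Over all 13 kinases the medians were -0.042 and -0.18. Of 13 genes of tubulin modifying enzymes, their relatives and partners, 10 passed, with medians of 0.16 and 0.17. Of these, 6 were higher and 3 lower with both, from AGTPBP1 (-0.58 and -0.59) to TTLL12 (0.67 and 0.65). Over all 13 of these genes the medians were 0.034 and 0.065.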

How the data were processed

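RNA from Caki-1 cells (si-Control, si-RBCK1 #1 and si-RBCK1 #2, 1 library each, grouped by their titles) was sequenced after ribosomal RNA removal with a directional kit; the paper's methods and the sample records name different sequencing providers. The authors deposited RPKM values per gene; the submitters' processing notes name hg19, FastQC, Trimmomatic, TopHat2 and HTSeq, whose versions and roles are not given in the sources used here. The table also holds the authors' comparison (fold change, p-value, q-value), which was not used. Library totals were found from RNAs of up to 200 nt, and for each gene the smallest whole reads and a length of up to 50000 nt were searched (relative tolerance 2e-09), with success for 12383 of 12403 genes (99.8%), the 7 members included. The filter was a mean level of 1 RPKM or more, and the pseudocount was 1 RPKM. With RPKM and 1 library per condition no model was fitted. The steps were tested on simulated data.

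The members and gene lists were chosen with earlier results of these data known. Genes named are the members, RBCK1, the 3 nearest genes per member, and overlapping protein-coding genes. Also named are list genes past 2-fold in both libraries or at either end of a list by the smaller log2 ratio. ARL2, CHEK2, CNOT6L, CNOT10, CLASP2, TUBGCP2, the stathmin relatives, the pseudogenes and the cell type markers are named beyond this rule, after their values were seen. Alternatives were pseudocounts of 0.1 and 5 RPKM, equal medians or totals, no filter or a stricter one (5 RPKM), a background of protein-coding genes, reads without a pseudocount and a 1.5-fold limit. Sequences came from the study's siRNA list, GENCODE v29 (GRCh38) and RefSeq (GRCh38.p14), and no coordinates were converted. Computations ran in scipy 1.17.1, pandas 2.3.3 and numpy 2.4.6 under Python 3.11.15, and plots in matplotlib 3.10.9.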

Additional observations from a re-analysis of the deposited data

How the results depend on the processing

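No paired analysis was possible because there was 1 library per condition. The median log2 ratio of the members lay between 0.064 and 0.12 with si-RBCK1 #1 and between 0.32 and 0.39 with si-RBCK1 #2 under every alternative run. Of 70 log2 ratios of single members under the alternatives, 65 kept their sign and moved by less than their counting interval reaches to each side. Another 3 moved further, toward 0 (TBCD with a pseudocount of 5 RPKM, STMN1 with si-RBCK1 #1 and equal totals). The last 2 changed sign with equal total RPKM (TBCB at -0.024 and TBCC at -0.030, both with si-RBCK1 #1). Of 132 medians of lists 115 stayed, 16 moved and 1 changed sign. The median that changed sign was that of the p53 response genes listed with TTC5, with si-RBCK1 #1. It was 0.048 with a mean of at least 5 RPKM, which leaves JMY and CHEK2 out. With a limit of 1.5-fold, 1 member (TBCD) was past it with si-RBCK1 #1, 1 with si-RBCK1 #2 and 1 with both, and 13.7% of all genes were past it with both. The share of all genes past 2-fold with both came to 5.43% when the pseudocount was 0.1 RPKM, 1.01% when it was 5 RPKM and 0.897% with no filter, which adds genes near 0. Equal medians and equal totals moved the all-gene median by less than 0.1. Depth limits TTC5 most, at 330 to 424 reads.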
